A study of Drosophila melanogaster with 2 samples.

Results

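Among the binding peaks of the nuclear receptor Hr39 in *Drosophila melanogaster* white prepupae, 1480 of the 7426 peaks of the optimal set (19.9%) stood in 224 dense chains. Members were chosen from the peak positions that were measured: summits on the arms of chromosomes 2, 3, 4 and X were sorted, neighbours no more than 5000 bp apart were linked, and runs of 5 or more peaks were kept, so that density, gap and number of peaks per chain describe the choice and were not tested. The remaining 5946 optimal peaks stood in runs of 4 or fewer. Chromatin immunoprecipitation and sequencing (ChIP-seq) was made from whole animals of pooled sexes, at the stage that opens metamorphosis, of the strain Hr39-RC-GFP, a transgenic line with a C-terminal GFP on Hr39. An antibody to GFP was used. There was 1 group with 2 biological replicates, numbered 1 and 3, and no second condition. The optimal set is the authors' list from both replicates together. No precipitation from animals lacking the tagged receptor was analysed here, so signal that depends on Hr39 could not be told apart from other signal. The tissue in which each peak arose was not measured, and the peaks of a chain may come from different cells. Depth is unknown, since the lists hold no counts of reads.

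Hr39 is an orphan nuclear receptor of the NR5 family, whose members bind DNA as monomers at an extended element. In the fly it is known from female reproductive glands and from the ecdysone response. Regulatory DNA of developmental genes in flies is commonly arranged as several enhancers spread over introns and flanking intergenic sequence, each active in its own tissue or time. Housekeeping genes instead tend to stand close together with short promoters, and either arrangement can place several binding regions within a few kilobases.

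At 83.7% of the summits in chains the sequence was poorer in G and C than its flanks, and the chain with the shortest span is printed so that summits can be read beside the sequence around them. This chain, on 2L, held 6 peaks within 2798 bp of an intron of B4, at 2.14 peaks per kb. The 101 bases centred on each of its 6 summits are printed in the order of position on the plus strand of the dm6 assembly, 5′ to 3′, followed by the windows at the midpoints of its 2 gaps over 600 bp. Capitals mark unbroken runs of 6 or more A or T.
B4 summit 1, chr2L:13512262-13512362: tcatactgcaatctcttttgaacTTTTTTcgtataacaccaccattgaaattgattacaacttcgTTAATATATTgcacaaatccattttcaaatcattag
B4 summit 2, chr2L:13512589-13512689: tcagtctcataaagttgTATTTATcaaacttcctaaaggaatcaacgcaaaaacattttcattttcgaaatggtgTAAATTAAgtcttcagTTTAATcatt
B4 summit 3, chr2L:13513652-13513752: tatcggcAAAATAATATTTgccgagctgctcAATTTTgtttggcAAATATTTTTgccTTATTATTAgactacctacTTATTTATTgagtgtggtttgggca
B4 summit 4, chr2L:13513880-13513980: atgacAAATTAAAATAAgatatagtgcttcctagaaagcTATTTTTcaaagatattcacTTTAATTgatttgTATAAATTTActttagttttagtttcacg
B4 summit 5, chr2L:13514728-13514828: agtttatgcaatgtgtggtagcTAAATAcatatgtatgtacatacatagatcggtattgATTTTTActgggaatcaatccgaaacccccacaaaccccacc
B4 summit 6, chr2L:13515060-13515160: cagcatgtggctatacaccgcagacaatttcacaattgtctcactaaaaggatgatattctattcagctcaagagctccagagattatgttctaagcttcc
B4 midpoint, between summits 2 and 3, chr2L:13513120-13513220: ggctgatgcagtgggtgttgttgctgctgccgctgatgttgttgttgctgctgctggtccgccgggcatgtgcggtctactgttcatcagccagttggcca
B4 midpoint, between summits 4 and 5, chr2L:13514304-13514404: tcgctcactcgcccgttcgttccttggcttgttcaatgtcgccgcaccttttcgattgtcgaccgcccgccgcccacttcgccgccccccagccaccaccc
GC content in the 6 summit windows was 28.7%, 27.7%, 33.7%, 22.8%, 38.6% and 40.6%, against 39.6%, 44.6%, 48.5%, 59.9%, 39.1% and 40.1% in the flanks 500 bp to each side. The first 4 were thus clearly poorer than their flanks, the fifth differed by less than 1 percentage point and the last was not poorer. The midpoint windows had 59.4% and 66.3%, well above the mean of 42.4% over the midpoints of all chains. The first 5 summits hold capitals and the last holds none, and neither midpoint holds any. The summits ranked 6242, 5890, 1657, 4193, 2854 and 4138 by the authors' signal, where rank 1 is the highest in the optimal set. Of the 6, 3 had a candidate summit within 100 bp in both replicates, since the first had none in replicate 3 and the summits 2 and 5 had none in replicate 1. The summits 3 and 4 were 228 bp apart and their regions overlapped. Summits 1 and 2 were 327 bp apart, and summits 5 and 6 were 332 bp apart. With summits closer than 400 bp counted once, fewer than 5 peaks were left here, so this run would not count as a chain.

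The strongest summits of 7 of the chains with the most peaks are printed next because the account of those chains starts from them. Each window is 101 bases centred on the summit, on the plus strand of dm6, with runs of 6 or more A or T in capitals.
heca, chr3R:30272657-30272757: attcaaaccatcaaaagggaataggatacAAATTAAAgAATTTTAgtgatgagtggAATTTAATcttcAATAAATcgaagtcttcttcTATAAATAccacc
Mnt, chrX:3682315-3682415: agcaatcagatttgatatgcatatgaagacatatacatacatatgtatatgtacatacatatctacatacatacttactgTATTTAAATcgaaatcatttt
mir-ban region, chr3L:640705-640805: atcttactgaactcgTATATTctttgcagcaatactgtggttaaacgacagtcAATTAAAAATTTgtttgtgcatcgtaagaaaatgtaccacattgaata
tara, chr3R:16236966-16237066: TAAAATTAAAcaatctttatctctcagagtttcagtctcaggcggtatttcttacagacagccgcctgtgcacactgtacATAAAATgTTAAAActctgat
vri, chr2L:5293321-5293421: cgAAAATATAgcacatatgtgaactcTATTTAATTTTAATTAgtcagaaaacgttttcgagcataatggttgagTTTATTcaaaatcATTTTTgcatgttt
Raf, chrX:2300654-2300754: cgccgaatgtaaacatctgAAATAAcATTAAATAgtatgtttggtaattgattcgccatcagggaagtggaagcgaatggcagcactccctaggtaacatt
CG6163, chr3L:11364416-11364516: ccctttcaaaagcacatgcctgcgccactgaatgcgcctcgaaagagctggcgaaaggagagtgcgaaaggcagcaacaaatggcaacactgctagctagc
GC content was 28.7% at heca, 24.8% at Mnt, 31.7% in the mir-ban region, 36.6% at tara, 26.7% at vri, 40.6% at Raf and 54.5% at CG6163. The window of vri had the longest run, of 16 bases, and that of the mir-ban region one of 12. CG6163 is the exception among these 7, with no run of 6.

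Most chains were short, and a few were long. There were 98 chains of 5 peaks, 44 of 6, 34 of 7, 13 of 8 and 13 of 9, while 22 chains had 10 or more and together held 267 peaks. Spans from the first to the last summit ran from 2798 to 40538 bp with a median of 9410 bp. All spans together covered 2.40 Mb of the 134 Mb of the arms, or 1.80%, and so held 61.6 member peaks per 100 kb of span, against 5.55 optimal peaks per 100 kb over the arms. The 1256 gaps inside chains had quartiles of 829, 1594 and 2819 bp, from 199 to 4994 bp, and 404 (32.2%) were under 1000 bp. In 104 gaps the summits were less than 400 bp apart, and 78 pairs of neighbouring regions overlapped, so some neighbours may be summits within 1 region of signal. With summits closer than 400 bp counted once, an alternative chosen after the data were seen, 183 chains with 1215 peaks remained in place of 224 with 1480.

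The limit of the rule cut through a continuous range. Just inside it, the 98 chains of 5 peaks had a median span of 7700 bp and their strongest peaks a median rank of 1023. Just outside, 198 runs of 4 peaks had a median span of 5878 bp and a median strongest rank of 1270. Gaps between 4500 and 5000 bp occurred 63 times inside chains, and 17 gaps over 5000 and up to 5500 bp, the smallest 5020 bp, separated a chain from its next peak. In 7 cases the next chain began within 10000 bp, the nearest after 5645 bp.

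Rebuilt in the 7426 highest-signal regions of each replicate, the same rule gave 224 chains with 1487 peaks in replicate 1 and 205 chains with 1363 peaks in replicate 3, a mean of 214 ± 13.4 chains and 1425 ± 87.7 peaks (SD, n = 2). Of the 224 optimal chains, a chain of replicate 1 overlapped 185 (82.6%) and a chain of replicate 3 overlapped 183 (81.7%), and 158 (70.5%) were met in both. All 22 chains of 10 or more peaks were met in both replicates. In 14 chains, all of 5 peaks, neither replicate alone gave a chain, among them those at Eip78C, sog and neur, yet every chain held at least 2 of the top regions of each replicate. Outside the optimal chains, 38 chains of replicate 1 and 22 of replicate 3 were found. The optimal set was made from these same libraries, so this shows how far the chains depend on either library and is not independent evidence of them.

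**Figure D1:**
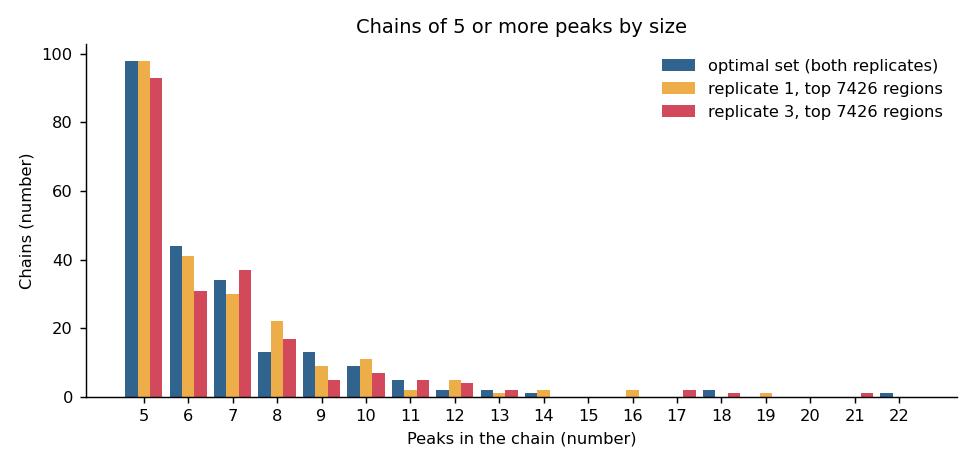
Number of chains (vertical axis) by the number of peaks per chain (horizontal axis) in the optimal set, in the top 7426 regions of replicate 1 and in those of replicate 3. Chains of 5 peaks are the most frequent in each list, with 98 in the optimal set, whose largest chain has 22 peaks. The largest chain of replicate 1 has 19 and that of replicate 3 has 21.

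Single member peaks were found in the replicates at shares like those of the other peaks. A candidate summit of replicate 1 lay within 100 bp of 96.5% of the 1480 member summits and one of replicate 3 of 98.0%, against 94.7% and 98.5% of the 5946 other optimal summits. Both replicates had one at 1402 members (94.7%), against 5550 other peaks (93.3%). The authors' optimal set is thresholded by the irreproducible discovery rate, a filter on agreement between replicates. High shares in both groups are therefore partly fixed by that filter. The median distance to the matched summit was 11 bp in replicate 1 and 6 bp in replicate 3 for members, against 11 and 7 bp for the others. Across the matched peaks, which share both libraries, the rank correlation of the replicates' signals was 0.910 over 1402 members and 0.874 over 5550 others. In 157 chains every member had a candidate in both replicates, and in 1 chain more than 50% of the members did not.

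Member peaks covered the whole range of signal. The signal value was set by the authors, and it is printed as deposited and compared by rank within the list. Members ran from rank 2 to rank 7421 with a median of 3402, and the other peaks from 1 to 7426 with a median of 3792. Among the first 1000 ranks stood 15.9% of members and 12.8% of the others. Split by where the summit lay, the median rank at promoters, meaning within 1000 bp of a transcription start site (TSS) of any gene, was 3372 in members and 3311 in the others, in introns 3353 and 4092, and in intergenic sequence 3426 and 4378. Since peaks of a chain share a locus and are not independent, these differences were not tested.

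Within a chain the peaks were unequal in rank. In 132 of the 224 chains the strongest peak ranked among the first 1000 and in 23 among the first 100, and in 4 chains no peak reached the upper 50% of the set, down to rank 3713. It stood at an end of the chain in 64 cases and inside it in the others. The strongest peak lay in an intron in 100 chains, at a promoter in 87 and in intergenic sequence in 35. Longer chains also had stronger best peaks, with median ranks of 1023 for chains of 5 peaks, 742 for 6 or 7, 462 for 8 or 9 and 436 for 10 or more, although more peaks also give more chances of a high one. The median rank over all peaks of these chains was 3556, 3628, 3072 and 2957.

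The 10 members with the highest signal belonged to 9 chains. The first, at rank 2 (chr2L:480843-481327, signal 4565), lay in an intron of ush and 1370 bp from the start of cbt, a zinc finger factor of the KLF type, and ranked 2 in replicate 1 and 3 in replicate 3. Next was a peak at rank 12 whose nearest protein-coding start, 13931 bp away, is that of osa, a subunit of the Brahma remodelling complex. ph-p (rank 16) encodes a Polycomb group protein and HmgZ (rank 24) an HMG box protein of chromatin. Shc (rank 25) is an adaptor of receptor tyrosine kinases, and Zw (rank 39) is glucose-6-phosphate dehydrogenase. CG4004 was nearest to members at ranks 22 and 30 in 1 chain of 7 peaks, CG31668 to rank 26, and LPCAT, a lysophospholipid acyltransferase, to rank 35. These 10 ranked between 2 and 38 in replicate 1 and between 3 and 42 in replicate 3. Of the 10, 8 were promoter peaks.

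The chain with the most peaks and the longest span stood at heca (chr3R:30255590-30296128, 40538 bp). heca, or headcase, encodes a cytoplasmic protein of imaginal cells that is known to restrain tracheal branching. Its 22 peaks comprised 11 in introns of the gene, 9 in the intergenic sequence before it and 2 promoter peaks. The strongest, at rank 269 with a signal of 1023, lay 5225 bp before the start of heca and 848 bp from the start of lncRNA:CR46113, a non-coding RNA, and ranked 293 in replicate 1 and 265 in replicate 3. An intronic peak with a signal of 862 (rank 411) and the last peak of the chain with 827 (rank 451) came next, and the lowest signals were 102 at 2 neighbouring intronic sites. High and low ranks were mixed along the locus. Each replicate had 21 of its top regions in the span. Rebuilt in replicate 1 alone, the chain had 19 peaks and ended at 30289154, while in replicate 3 it had 21 and ended at 30296154.

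At Mnt all 18 peaks of a chain lay within the gene (FBgn0023215, chrX:3671801-3701672), which makes it, with sbb, the gene with the most member summits. Mnt encodes a bHLH-zipper partner of Max that opposes Myc in growth. Its chain (chrX:3672718-3696737) had 16 intronic and 2 promoter peaks, with signals between 118 and 563 and a best rank of 880, which was 1139 in replicate 1 and 733 in replicate 3. No peak of this chain was among the strongest 500 of the set, unlike at heca. The span held 16 top regions in replicate 1 and 18 in replicate 3. With summits closer than 400 bp merged, 15 peaks were left, and 21 at heca and 18 in the mir-ban region.

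The other chain of 18 peaks overlapped no protein-coding gene (chr3L:607142-644319). It covered mir-ban (FBgn0262451, chr3L:642208-642288), the bantam microRNA that promotes growth and blocks cell death, and lncRNA:CR43334 (chr3L:628435-643900), which holds the microRNA and 5 of the 18 summits. mir-ban was named after its values were seen. The strongest peak lay at 640755, inside the long non-coding RNA and before the microRNA, with a signal of 919 (rank 355, 404 in replicate 1 and 324 in replicate 3). Peaks with signals of 795 and 792 stood about 20 kb further upstream. Of the 18 peaks, 9 were intergenic, 5 in non-coding exons and 4 at promoters of non-coding genes or of Reg-2, and 16 top regions of replicate 1 and 17 of replicate 3 fell in the span.

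Signalling and growth genes held several of the other long chains. tara, a SERTA domain protein linked to trithorax genes and the cell cycle, held a chain of 14 peaks in its introns (chr3R:16231998-16253654), with signals between 107 and 697. A further chain of 10 peaks over 7 long non-coding RNAs ended 7487 bp before it, with a strongest peak at rank 158. The tara span held 13 top regions in replicate 1 and 17 in replicate 3, and 2 chains of replicate 1 and 1 of replicate 3 overlapped it. Raf, the kinase between Ras and MEK, had a chain of 11 peaks of which 9 were in the gene (chrX:2293730-2308743). Its strongest peak, in an intron 5238 bp from the start, had a signal of 1995 (rank 66, 54 in replicate 1 and 71 in replicate 3), and the next of the chain ranked 397. The strongest peaks at tara and Mnt ranked 610 and 880.

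CHES-1-like, a forkhead factor, had 11 of the 13 peaks of its chain, with 993 and 925 as the highest signals and CG15478 holding 1 of the rest. At vri, a bZIP repressor of the circadian clock, 10 of 11 peaks lay in the gene, and 2 of them, 578 bp apart in an intron, had signals of 858 and 605. wts, the kinase that ends the Hippo cascade, and cindr, an adaptor of cell junctions and actin, shared a chain of 11 peaks with 5 in each gene and signals of at most 498. aop, an ETS repressor of EGFR signalling, held 3 of 12 peaks in a chain that ran on over tRNA and long non-coding RNA genes, and 8 of those 12 had signals under 160. In the chain near Ids, a lysosomal sulfatase, 10 of 12 peaks were intergenic and none lay in a protein-coding gene. Its strongest peak (signal 1613, rank 89, 85 in replicate 1 and 98 in replicate 3) was 987 bp from the start of lncRNA:CR45737. The chain ended before sty, which encodes Sprouty, an inhibitor of receptor tyrosine kinase signalling and which was named after its values were seen. CG6163 held 1 of the 11 peaks of its chain.

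**Figure D2:**
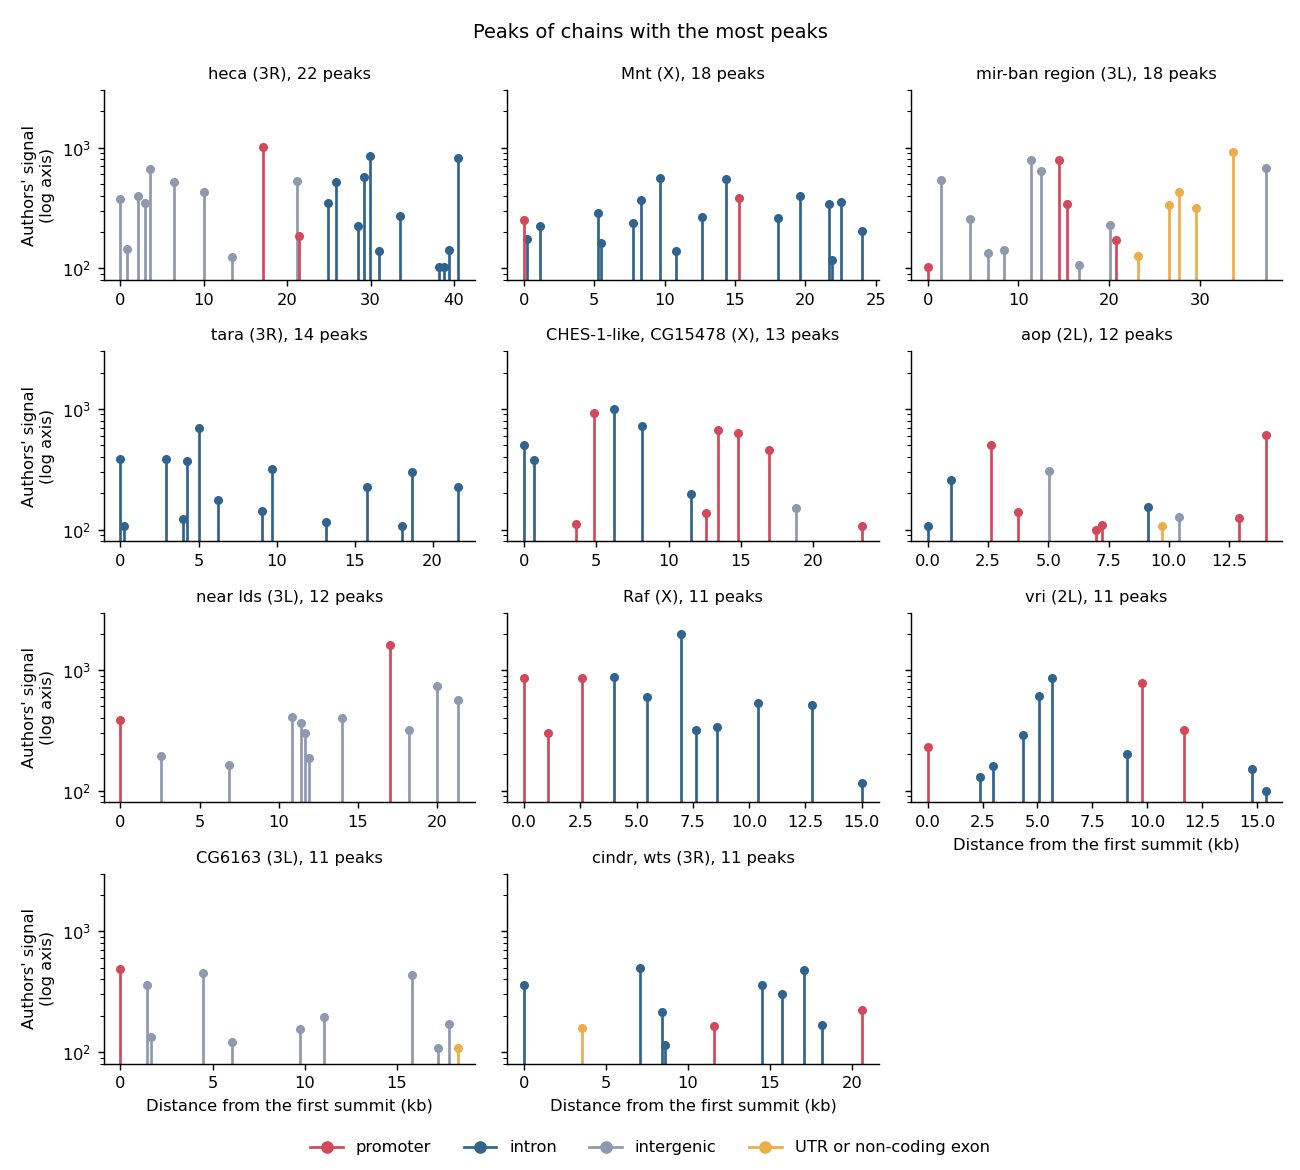
The panels plot, for 11 of the 12 chains with the most peaks (of chains with equal numbers, those with the shorter span), the authors' signal of every peak (vertical, log axis) against the distance of its summit from the first summit in kb (horizontal), coloured by the class of the summit. Raf and the chain near Ids have 1 peak above 1500, while no peak of Mnt passes 563.

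Of the 13945 protein-coding genes, 364 (2.61%) were overlapped by a chain span and 244 (1.75%) held a member summit in the gene body. These 2 shares are the background for the genes and lists described next. In 33 chains no protein-coding gene was overlapped, in 105 it was 1 gene, in 74 it was 2 to 4 and in 12 it was 5 or more. A single gene held all peaks in 71 chains and more than 50% of them in 135 (60.3%). Genes with a member summit were long, with a median of 16357 bp, against 2166 bp for all protein-coding genes. Of the longest 25% of genes 5.39% were overlapped, against 1.52%, 1.89% and 1.64% in the 3 groups of shorter genes of like number, so a long gene was met more often and the median length of the genes stands beside the lists below. Of 4219 non-coding genes 160 (3.79%) were overlapped.

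Among genes, 14 held 10 or more member summits and 107 held 5 or more. sbb (scribbler), a co-repressor, and shn (schnurri), a zinc finger effector of Dpp, had 18 and 17 over 2 chains each. ush, a Friend of GATA factor, had 14 and the translational repressor brat 11, again over 2 chains. The gene body of ush is long and encloses others, cbt among them. Others were CG1677 with 12, CHES-1-like and heca with 11, and CG12535 with 10. kirre, an immunoglobulin adhesion protein of myoblast fusion, had 11 members among its 35 optimal peaks. Of these 11, 5 also lay in CG32795, a gene inside kirre that was named after its values were seen. The gene kirre spans 394149 bp and so had 0.279 member summits per 10 kb, while Mnt had 6.03 per 10 kb. The top regions numbered 21 in replicate 1 and 22 in replicate 3 at sbb, 18 and 19 at shn, and 15 and 14 at ush. The replicates differed more at kirre, with 36 and 31, and at CG1677, with 24 and 20.

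Lists of pathway genes, chosen with earlier results of these data known, differed in how many members a chain overlapped, and every listed gene that was overlapped also held a member summit. Of 16 genes of the Dpp (BMP) pathway 5 were overlapped, or 31.2%. They were sbb, shn, the type I receptor tkv with 6 member summits, the antagonist sog with 5 and the inhibitory Smad Dad with 4. Of 20 EGFR and Ras genes 6 were overlapped (30.0%). From ligand to nucleus these were spi, the main activating ligand, with 4, Krn, another activating ligand, with 1, the inhibitory ligand aos with 3, Raf with 9, the ETS activator pnt with 7 and aop with 3. In the Hippo list 4 of 14 were overlapped (28.6%): the protocadherin ds with 6, kibra with 6, wts with 5 and the caspase inhibitor Diap1 with 4, while mir-ban, another target of the pathway, is non-coding and was counted apart. Of 19 Wingless genes 4 were overlapped (21.1%), the co-receptor arr with 10, the receptors fz2 with 7 and fz3 with 3, and Notum, an extracellular enzyme that inactivates the ligand, with 2. The median gene lengths of these lists were 10577, 8518, 14810 and 12470 bp.

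The lists described next had 2 to 4 genes overlapped each. The JAK/STAT list had 2 of 9 (22.2%), the phosphatase Ptp61F and the feedback inhibitor Socs36E with 5 each. Ptp61F spans 132765 bp, and 4 of its 5 member summits also lay in ru, a gene inside it. ru was named after its values were seen. The JNK list had 2 of 11 (18.2%), the phosphatase puc with 7 and the kinase msn with 6. The Notch list had 3 of 21 (14.3%), the coactivator mam with 5, the ubiquitin ligase neur with 4 and the glycosyltransferase fng with 2. In the list called co-regulators and KLF-type factors, a name that does not hold for all of its genes, 4 of 15 (26.7%) were overlapped. These were sbb, tara, the cytoplasmic protein heca and the bZIP factor CrebA, the last with 1 member summit. The bHLH-zipper list had 2 of 8, Mnt and crp, and the circadian clock list 2 of 10, vri and the kinase dco. Of 14 ecdysone-response factors 2 were overlapped (14.3%), the nuclear receptors Hr4 with 6 member summits and Eip78C with 5, and these were also the 2 of 21 nuclear receptors (9.52%). The median gene lengths, in the order of these 7 lists without the nuclear receptors, were 7364, 9021, 5261, 34679, 21256, 12433 and 45299 bp. For the nuclear receptors the median was 22386 bp. The chain at Eip78C was found in neither replicate alone, where 4 top regions lay in the gene in each.

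The other lists had at most 1 gene overlapped, beside the background of 2.61%. Cell death genes had 1 of 14 (7.14%, Diap1), muscle genes 1 of 17 (5.88%, Tm1, a tropomyosin) and axon guidance and adhesion genes 1 of 20 (kirre). No listed gene was overlapped among 19 of insulin, TOR and nutrient sensing, 19 of the actin cytoskeleton and cell shape, 24 homeobox and segmentation genes and 17 heat shock genes. Their median lengths were 7568, 4539, 6747 and 2324 bp. The lists do not hold every gene of their kind. For example, cindr, an adaptor of cell junctions and actin, was not on the actin list and held 5 member summits. With lists this small a few genes make the share, and no list was tested.

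**Figure D3:**
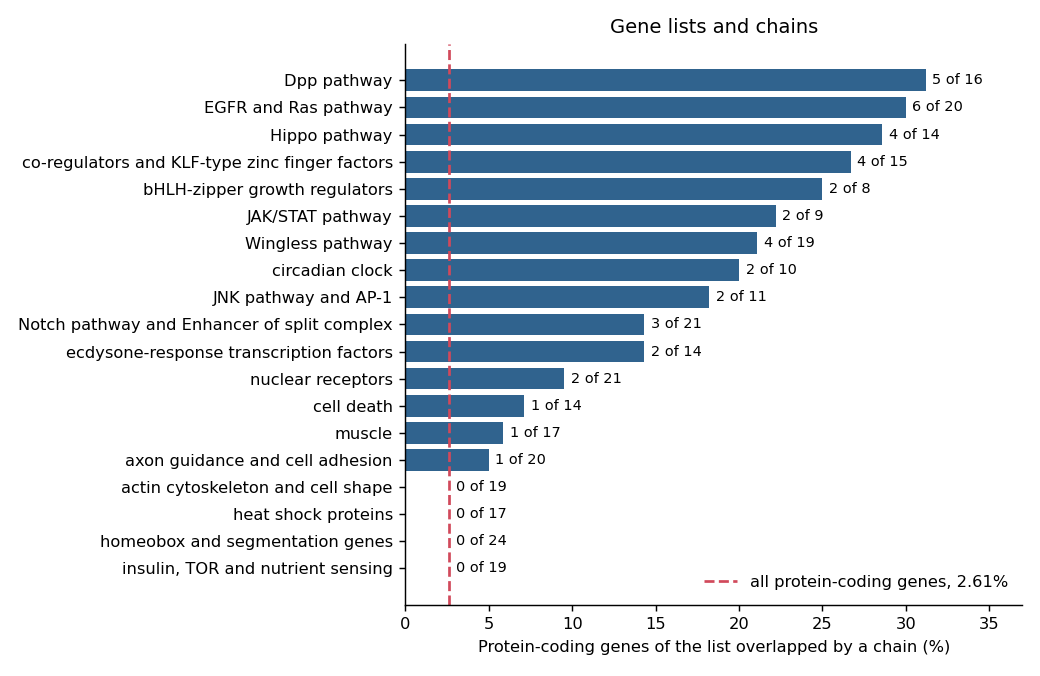
Share of the protein-coding genes of each list overlapped by a chain (horizontal axis, %) for 19 gene lists, with the number overlapped and the number matched beside each bar and the 2.61% of all protein-coding genes as a dashed line. The Dpp list is the highest with 5 of 16, and 4 lists have none.

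Fewer of the summits in chains were promoter peaks than of the others, and more were intronic. Of the members 35.9% were promoter peaks, 45.4% intronic and 17.0% intergenic, against 50.3%, 33.4% and 14.9% of the other optimal peaks. UTRs or non-coding exons held 1.62% of members and 1.33% of the others, and coding exons 0 members and 6 others. The median distance to the nearest TSS was 1820 bp for members and 986 bp for the others. Members were chosen by the positions of their summits, which also give the class. The class mix may thus be tied to the choice and was not tested.

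What a chain overlapped went with the class of its peaks, but both were read from the same summits and gene annotation. The shares given next are thus partly fixed by definition and were not tested. In the 33 chains with no protein-coding gene 68.5% of 222 peaks were intergenic. In the 105 chains with 1 gene 61.9% of 700 peaks were intronic, and in the 12 chains with 5 or more genes 64 of 80 peaks were promoter peaks. In 32 chains all peaks were intronic, in 14 all were promoter peaks, and 46 chains had no promoter peak.

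**Figure D4:**
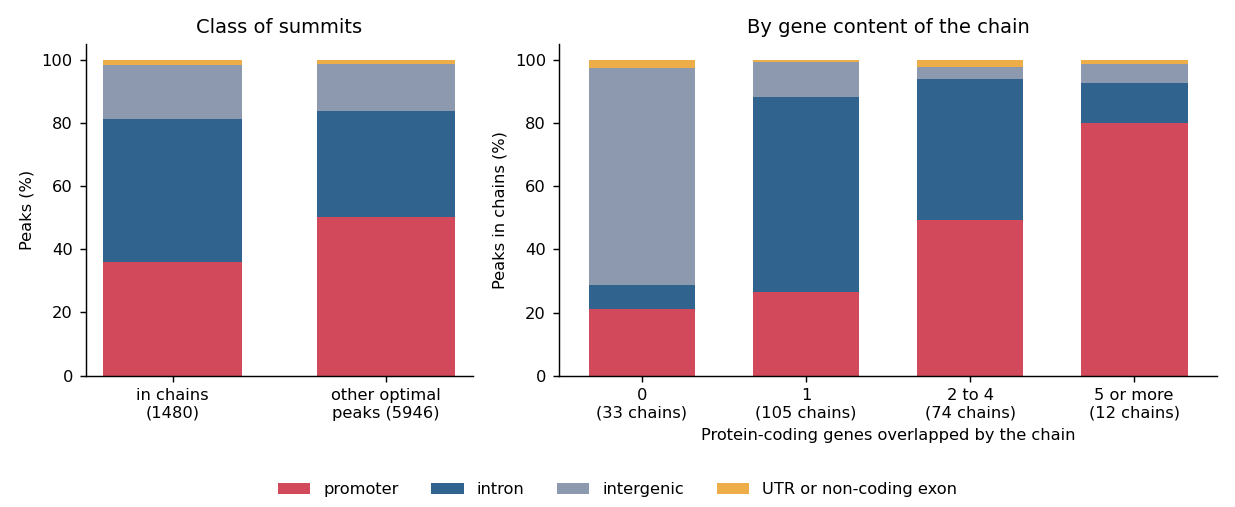
Share of peaks (vertical axis, %) by class of summit, for members and for the other optimal peaks (left) and for members by the number of protein-coding genes that their chain overlaps (right). Promoter peaks make up 35.9% of members and 50.3% of the others, and 64 of 80 peaks in chains with 5 or more genes. Class and gene overlap were read from the same annotation.

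The gene-dense chains were made up mostly of promoter peaks, where those of Mnt and tara were mostly intronic. They were named after their values were seen. A chain of 9 peaks on 3L (chr3L:9442284-9462396), all at promoters, overlapped 9 protein-coding genes, among them Srg3, phol and ghi, with a strongest peak at rank 44. A chain of 7 peaks on 2L overlapped 6 genes, including ebi and RpLP1, a ribosomal protein gene, and its strongest peak, 121 bp from the start of ebi, ranked 298. A chain of 5 promoter peaks on 3R overlapped Idh3b, Mitofilin, mRpL35, CG6028 and Cchl, which mostly encode mitochondrial proteins, and each replicate had 5 top regions there. No gene held most of the peaks of any of these chains.

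Among the 33 chains without a protein-coding gene, 18 covered a named non-coding gene and 15 none. The following were named after their values were seen. A chain of 5 peaks next to kay, the fly Fos, had its strongest peak at rank 56, 2639 bp from the TSS. A chain of 7 peaks began next to hid, a pro-apoptotic gene, with rank 156 at 307 bp from its TSS. One of 5 peaks next to Ldh, lactate dehydrogenase, had rank 596 at 215 bp, and one of 6 peaks beside E(spl)m3-HLH, a repressor induced by Notch, had rank 832 at 456 bp. A chain of 7 peaks lay on lncRNA:let7C, the precursor of ecdysone-timed microRNAs, with a best rank of 1735 and 6 and 7 top regions in the replicates 1 and 3. On 3L, 4 chains of 7, 9, 5 and 10 peaks followed each other between 758777 and 824666. Chains stood there with no annotated protein-coding gene under 3 of the 4, and which genes they regulate, if any, was not measured.

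The share of an arm's peaks that stood in chains was 22.6% on 3L and 330 of 1501 on X. It was 20.3% on 2L, 17.9% on 2R and 17.2% on 3R, and 0 of 26 peaks on 4. Per 10 Mb there were 20.4 chains on X, 19.6 on 3L, 17.4 on 2L, 14.0 on 3R and 13.8 on 2R. The replicates gave 55 and 40 chains on X and 50 and 56 on 3L, in the order 1 and 3, so the order of these arms was not the same in both. Below the optimal set, 772 weaker regions of the pooled list also fell inside the spans, or 32.1 per 100 kb, against 15.9 per 100 kb over the arms.

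Summits in chains were poor in G and C, as other summits were, and the sequence between them was near the mean of the arms. In the 101 bases around the summit GC content averaged 33.4% ± 7.94 (SD over 1480 members), and 34.0% ± 8.14 in the 5946 other peaks. Windows 500 bp to each side averaged 43.4% in members and 43.9% in the others, and the summit was lower than its flanks in 83.7% of members and 81.8% of the others. At 1106 midpoints between neighbours in chains more than 600 bp apart the mean was 42.4%, close to the 42.2% of the arms, so the low GC content was local to the summits. A run of 10 or more A or T stood in 51.1% of member windows, 51.8% of other summit windows, 29.2% of midpoint windows and 30.7% of all 101 bp windows along the arms. The strongest peaks of the chains averaged 31.9% ± 6.47 over 224, and the other members 33.6% ± 8.15 over 1256.

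**Figure D5:**
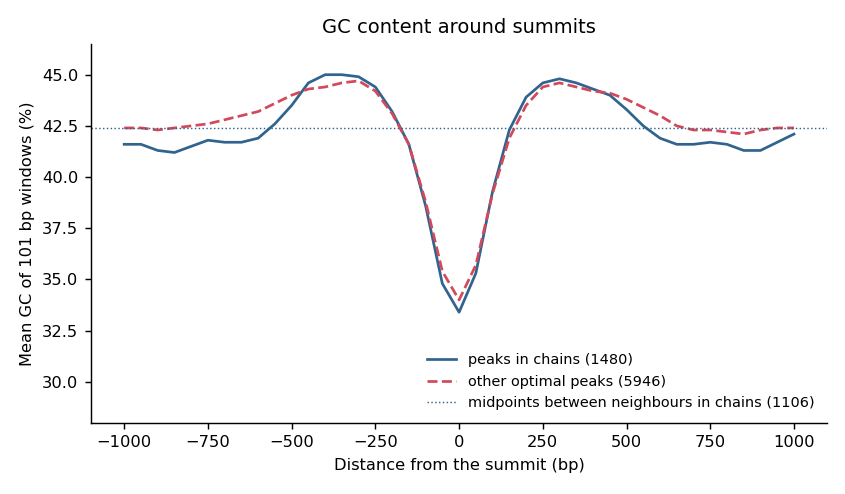
Mean GC content in 101 bp windows (vertical axis, %) by distance of the window centre from the summit in bp (horizontal axis), for 1480 members and 5946 other optimal peaks. Both curves fall to their minimum at the summit, 33.4% in members and 34.0% in the others, and the dotted line marks the 42.4% at midpoints in chains.

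Short words known from DNA-binding proteins were counted in the same windows, on both strands and with overlaps allowed. The element of NR5 receptors was rare in each kind of window. CAAGGTC was in 0.541% of members, 0.824% of the other peaks, 0.362% of midpoints and 0.675% of all windows along the arms. The variant CAAGGCC stood in 0.338%, 0.521%, 0.452% and 0.810%, in that order. The shorter nuclear receptor word AGGTCA, which overlaps CAAGGTC in 5 letters, stood in 2.23%, 1.93%, 1.81% and 2.71%. The AT-rich word TTTAAAA was in 15.3% of members, 13.3% of the others, 6.42% of midpoints and 5.79% of arm windows. It was present at 226 member summits in 148 of the 224 chains. Of the words of housekeeping promoters, the DNA replication-related element TATCGATA was in 0.541% of members, 1.40% of the others, 0% of midpoints and 0.274% of arm windows. The core of Motif 1, GGTCACACT, was in 0.338%, 0.555%, 0% and 0.0973%, in the same order. GAGAG, read by the GAGA factor, was in 7.36% of members and 9.15% of the others, but in 14.1% of midpoints and 11.4% of arm windows. In members, other peaks, midpoints and arm windows, the AP-1 word TGAGTCA was in 1.08%, 0.757%, 1.36% and 0.783%. In the same order, the E-box CACGTG was in 0.676%, 0.622%, 1.18% and 1.17%, and CAGGTAG, read by Zelda, in 0.541%, 0.387%, 0.633% and 0.533%. The repeat ACACACAC was in 0.811%, 0.925%, 3.35% and 1.86%, and the Grainyhead word AACCGGTT in 0.0676%, 0.168%, 0.452% and 0.0906%. Some shares rest on few windows, such as 16 members and 15 midpoints with the AP-1 word and 1 member with the Grainyhead word. These counts describe letters in a window and were not tested. They were not adjusted for GC content, which averaged 33.4% in member windows, 42.4% at midpoints and 42.2% over the arms. A difference in words from midpoints or arms thus cannot be told apart from this difference in bases.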

How the data were processed

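ChIP-seq peak lists on dm6 were used for 2 biological replicates of 1 group. Per the labels, chromatin was sonicated to a size range of 200 to 800 and GFP was the target of the antibody. The authors deposited a candidate list per replicate (30000 regions each), a pooled list of peaks and background (28773) and an optimal set (7444, of which 18 off the 6 arms were left out). No source used here names the peak caller or the aligner, and the control was not analysed here. The signal per region was set by the authors and was compared by rank within each list. The deposited −log10 q values were not used for ranking. The optimal set was the top of the pooled list by signal.

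Summits came from the deposited offsets. Genes came from the Ensembl 115 annotation of Release 6, of whose names 2 on the lists matched no gene and 5 were replaced by current symbols. A summit within 1000 bp of a TSS was a promoter peak. The others were classed by overlap, first with coding exons, then with other exons, then with introns. Chaining, tested on simulated positions, and all counts ran in Python 3.11.15 with numpy 2.4.6, pandas 2.3.3 and matplotlib 3.10.9.

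The members and lists were chosen with earlier results of these data known. The text names the 12 chains with the most peaks (ties by the shorter span) with up to 3 genes each, the 12 genes with the most member summits, the genes nearest to the 10 strongest members, the longest and shortest chain and up to 4 genes per list. Dad, Krn, aos and aop stand in lists with more than 4 and were named to complete the counts, after their values were seen. Of these chains and genes, 1 chain and its gene are not reported here. Alternatives changed the gap, the number of peaks, the list, the distances and the windows. Sequences were read from the dm6 assembly (RefSeq). With 2 samples of 1 group no test was made. Peak lists hold no counts, so no counting interval is given.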

Additional observations from a re-analysis of the deposited data

How the results depend on the processing

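The number of chains, which was 224, was 78 with a largest gap of 2500 bp and 423 with 10000 bp, 422 with at least 4 peaks and 126 with at least 6, and 41 among optimal peaks with signal above the median. Over the same 5 settings the peaks in chains, 1480 in all, numbered 456, 3235, 2272, 990 and 251. These are 6.14%, 43.6%, 30.6%, 13.3% and 6.76% of the peaks used. In the last setting only the peaks with signal above the median were used, so its share has a smaller base. Protein-coding genes covered, 364 at first, numbered 81, 1335, 622, 204 and 49. The share of members at promoters, 35.9%, was 33.3%, 40.3%, 38.5%, 33.5% and 34.7%, and 25.2% or 52.3% with a TSS distance of 500 or 2000 bp. With gaps between region ends 21.3% of peaks were in chains. With summits closer than 400 bp merged, chosen after the data were seen, 17.2% of the 7077 peaks left were in chains and 33.1% of those at promoters.

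In either replicate alone there were 205 to 224 chains, 1363 to 1487 peaks in chains (18.4% to 20% of all peaks), 341 to 352 genes covered, 35.8% to 37.8% of peaks at promoters and a mean GC content of 33.1% to 34.2%. A candidate in both replicates, found at 94.7% of members, was found at 84.7% within 50 bp, 98.0% within 200 bp and 82.6% in the top regions, and in 1 replicate at 96.5% to 98.0%. With 100 bp to each side mean GC content was 35.1% in place of 33.4%. Against the peaks left outside the chains in the same setting, the promoter share of members was different by -18.5 to -9.81 percentage points in the alternatives to the gap, size, list and TSS distance. The numbers therefore depend on the gap and size chosen, and the depth behind the lists is unknown. No paired analysis was possible because there was 1 group.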
